A study of Mus musculus with 6 samples.

Results

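The major histocompatibility complex (MHC) class I pathway was described in mouse bone marrow through 10 genes, the class I heavy chain genes H2-T24, H2-Q4, H2-Q5, H2-M3, H2-Q2 and H2-T10, the light chain gene B2m, and the peptide loading genes Tap1, Tap2 and Tapbp. They were selected by gene symbol in the platform annotation, with earlier results of the same arrays known, so their differences between groups are a description and support nothing by themselves. All 10 were among the 19938 genes that had a probe set with 1 symbol only, and each had 1 such probe set. The study compared 3 arrays of diabetic marrow, labelled BKS.Cg-Dock7m -/- Leprdb/JNju, with 3 arrays of wild type marrow, labelled BKS.Cg-Dock7m +/+ Leprdb/JNju. Both genotype labels thus carry Leprdb and differ in Dock7m, and the group names come from the labels' tissue source. Mice that lack a working leptin receptor through the db variant overeat, grow obese and become diabetic, most severely on the BKS background. All animals were males of 10 weeks, and the marrow was flushed from femurs and tibiae with no further treatment. Values are log2 signals per probe set after robust multi-array averaging (RMA). The labels do not state whether each array came from 1 mouse or from pooled mice. A p-value here weighs the difference between the groups against the spread among the arrays of a group. That spread may therefore be technical and not between animals.

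MHC class I molecules sit on almost all nucleated cells and show fragments of the cell's own proteins to CD8 T cells. Each is a heavy chain joined to beta-2-microglobulin, and it is stable only once a peptide is bound. The Tap1-Tap2 transporter pumps peptides from the cytosol into the endoplasmic reticulum, where tapasin, the product of Tapbp, holds empty class I molecules beside the transporter. Interferons raise the transcription of most genes of this pathway, and erythroid cells carry less class I as they mature. In the mouse, H2-Q and H2-T genes encode the nonclassical heavy chains, and H2-M3 presents peptides that begin with N-formylmethionine.

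The arrays read as marrow by their markers, with list means of 8 neutrophil genes between 13.37 and 13.55 log2 units on the diabetic arrays and between 13.44 and 13.47 on the wild type arrays. Array medians ran from 7.67 to 7.73, and precision is limited by there being 6 arrays. Marrow is a mixture of cell types, so fewer cells of a type and less RNA per cell cannot be told apart. Class I genes differ among mouse strains and resemble each other within one, so a probe set may also read RNA of a relative. Whether both groups carry the same H2 alleles was not tested. The classical heavy chains H2-K1 and H2-D1 had no probe set with 1 symbol and were not analysed here. For 3 further probe sets, 1 naming H2-T10 and 2 naming Tapbp, the annotation listed other genes too, and these were not used.

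None of the 10 genes was called. In the limma fit across 12029 genes, 0 of the 10 had an adjusted p under 0.05 after Benjamini-Hochberg adjustment, where 0.432% of all genes tested were called, 0.333% lower in diabetic marrow and 0.0998% higher. At an unadjusted p under 0.05 there were 3 of the 10, H2-T24, Tap1 and Tapbp, all with lower means in diabetic marrow, beside 3.2% of all genes for that direction and 7.18% for either. Of the 10, 9 had a log2 change below 0, as had 47.7% of all genes tested. The median log2 change of the 10 was -0.23, with a range from -0.54 to 0.04, while the median over all genes tested was 0.0046 with quartiles of -0.05 and 0.07. The diabetic values all lay below the wild type values for 4 of the 10, H2-T24, Tap1, Tapbp and B2m, where 5.39% of all genes showed this separation. None was separated upward, as 6.97% of all genes were, and the other 6 overlapped, as did 87.6%. The median ran from -0.28 to -0.15 over the 6 fits that each omit 1 array, with the value nearest 0 without wild type replicate 2. All 10 lay above the level filter of 7.50 log2 units in both group means, so none was kept through one group alone. With array weights, 7 of the 10 were called lower, and so many other genes that 1878 of 12029 were called, 887 of them lower; wild type replicate 2 then had a weight of 11.7, and the estimate stopped before it converged.

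**Figure D1:**
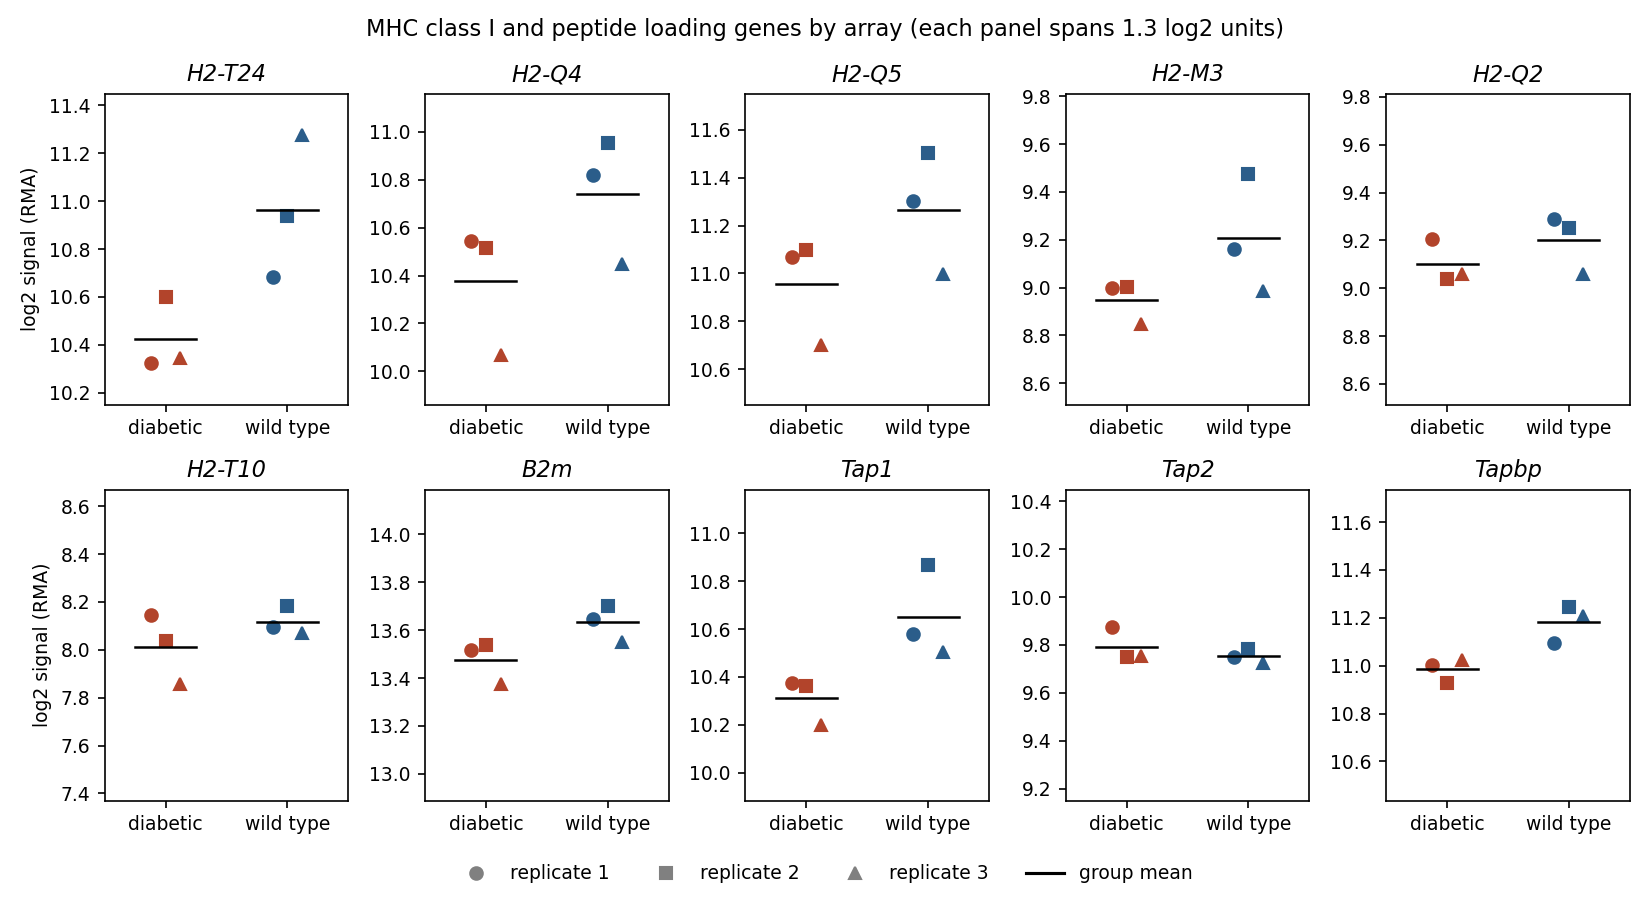
Log2 RMA signal of each of the 10 genes on the 3 diabetic and 3 wild type arrays, with marker shapes for the replicate and a black line for the group mean; all panels span the same height on their own levels. The diabetic points of H2-T24, Tap1, Tapbp and B2m all lie below the wild type points, while those of Tap2 overlap them.

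Among the heavy chains, H2-T24, a nonclassical gene of the T region, had the largest difference of the 10. It stood at 10.323, 10.598 and 10.346 on the diabetic arrays and at 10.682, 10.937 and 11.277 on the wild type arrays. The groups did not overlap, and the gap between diabetic replicate 2 and wild type replicate 1 was smaller than the spread of the wild type arrays. The log2 change was -0.54 ± 0.15 (SE, n = 3 per group), 1.46-fold lower in diabetic marrow. Limma gave 0.412 as its Benjamini-Hochberg adjusted p, and its unadjusted p ranked 194 of 12029. The change ran from -0.68 to -0.39 over the 6 fits that each omit 1 array.

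H2-Q4 and H2-Q5 are neighbours in the Q region of chromosome 17, and H2-Q5 is listed as a transcribed pseudogene in RefSeq. H2-Q4 was at 10.55, 10.52 and 10.07 on the diabetic arrays and at 10.82, 10.95 and 10.45 on the wild type arrays. H2-Q5 was at 11.068, 11.097 and 10.702 on the diabetic arrays and at 11.301, 11.501 and 10.996 on the wild type arrays. In both genes replicate 3 was the lowest array of its group, and wild type replicate 3 lay below diabetic replicates 1 and 2, so the groups overlapped. The log2 change was -0.36 ± 0.16 for H2-Q4 and -0.31 ± 0.15 for H2-Q5 (SE, n = 3 per group), and limma gave 0.710 and 0.745 as Benjamini-Hochberg adjusted p. The 95% intervals, not adjusted for the number of genes, ran from -0.74 to 0.02 and from -0.65 to 0.03.

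H2-M3, which presents bacterial and mitochondrial formylated peptides, also had replicate 3 as the lowest array of each group. It was at 8.999, 9.001 and 8.849 on the diabetic arrays and at 9.160, 9.473 and 8.986 on the wild type arrays. Wild type replicate 2 stood above the rest, and wild type replicate 3 lay between the diabetic values. Its log2 change was -0.26 ± 0.12 (SE, n = 3 per group), and limma gave it 0.738 as Benjamini-Hochberg adjusted p. Without wild type replicate 2 the log2 change was -0.12.

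H2-Q2 and H2-T10 differed least among the heavy chains. H2-Q2, the nearest coding neighbour of H2-Q4, averaged 9.10 ± 0.09 on the diabetic arrays and 9.20 ± 0.12 on the wild type arrays (SD, n = 3 each). H2-T10, a transcribed pseudogene in RefSeq, averaged 8.01 ± 0.15 in diabetic and 8.12 ± 0.06 in wild type marrow (SD, n = 3 each). Both log2 changes, -0.10 ± 0.08 for each gene (SE), were smaller in size than the range of the 3 diabetic arrays, and the 95% intervals ran from -0.29 to 0.09 and from -0.30 to 0.09.

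B2m, the light chain shared by all class I molecules, had one of the brightest probe sets of the array, at the 99.5 percentile of the named sets. It was at 13.52, 13.54 and 13.37 on the diabetic arrays and at 13.65, 13.70 and 13.55 on the wild type arrays. The groups did not overlap, but diabetic replicate 2 and wild type replicate 3 were nearly level. The log2 change was -0.16 ± 0.07 (SE, n = 3 per group), 1.12-fold lower in diabetic marrow, and limma gave it 0.711 as Benjamini-Hochberg adjusted p.

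Tap1 and Tap2, the partner chains of the peptide transporter, are given in turn. Tap1 was at 10.374, 10.362 and 10.199 on the diabetic arrays and at 10.581, 10.867 and 10.502 on the wild type arrays. Every diabetic value of Tap1 lay below every wild type value, and wild type replicate 2 stood apart above the others. The log2 change of Tap1 was -0.34 ± 0.10 (SE, n = 3 per group), 1.26-fold lower in diabetic marrow, and limma gave it 0.524 as Benjamini-Hochberg adjusted p. It was -0.23 without wild type replicate 2.

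Tap2 was at 9.87, 9.75 and 9.75 on the diabetic arrays and at 9.75, 9.78 and 9.72 on the wild type arrays. The groups overlapped, and diabetic replicate 1 was the single high value. The log2 change was 0.04 ± 0.06 (SE, n = 3 per group), with a 95% interval from -0.10 to 0.18. That interval did not reach the value of Tap1, but the difference between the 2 genes was not itself tested. Without diabetic replicate 1 the sign of Tap2 turned, to -0.0010.

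Tapbp, which encodes tapasin, was at 11.002, 10.927 and 11.024 on the diabetic arrays and at 11.097, 11.245 and 11.208 on the wild type arrays. The groups did not overlap, but the gap between diabetic replicate 3 and wild type replicate 1 was smaller than the range within either group. The log2 change was -0.20 ± 0.06 (SE, n = 3 per group), 1.15-fold lower in diabetic marrow, and limma gave it 0.547 as Benjamini-Hochberg adjusted p. It ran from -0.24 to -0.17 over the 6 fits that each omit 1 array.

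**Figure D2:**
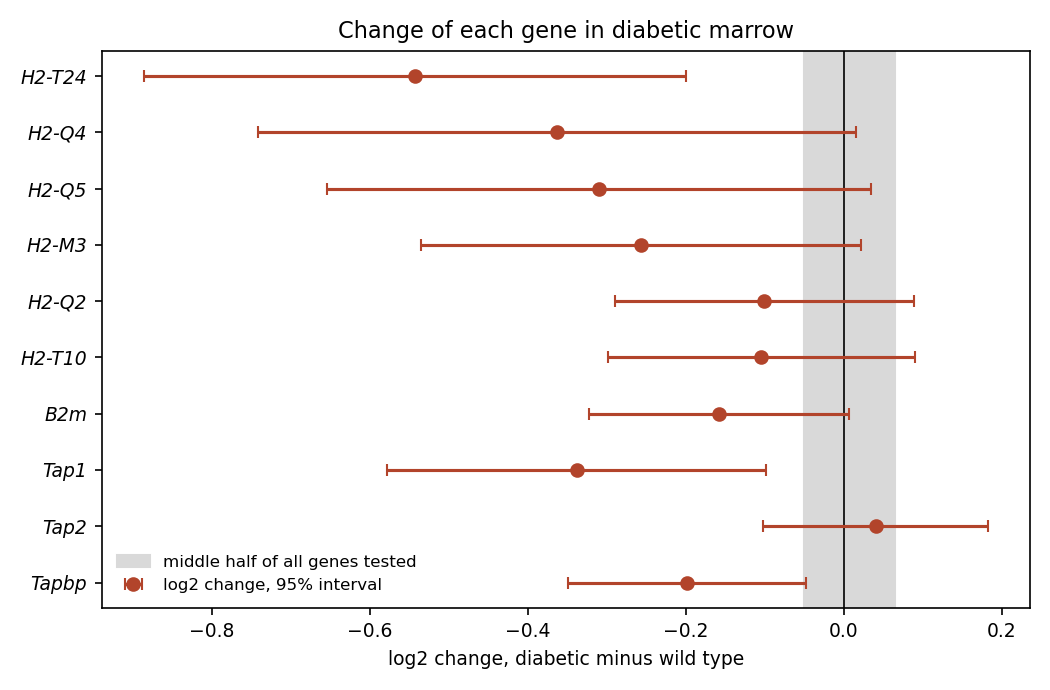
Log2 change of each of the 10 genes, diabetic minus wild type, with its 95% interval from the limma fit, not adjusted for the number of genes; the grey band runs between the quartiles of all genes tested, from -0.05 to 0.07. The intervals of H2-T24, Tap1 and Tapbp lie wholly below 0, and Tap2 at 0.04 lies within the band.

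Of the 10 genes, 9 lie on chromosome 17, where the H2 complex is, and B2m lies on chromosome 2. In the order of coding genes in RefSeq, Tap1 stands between Psmb9 and Psmb8, which encode subunits of the immunoproteasome that cuts peptides for class I, and Tap2 follows Psmb8. Along this run the log2 changes were -0.22 ± 0.08 for Psmb9, -0.34 ± 0.10 for Tap1, -0.13 ± 0.08 for Psmb8 and 0.04 ± 0.06 for Tap2 (SE, n = 3 per group). The next gene, H2-Ob, a class II gene, was at 0.0034 ± 0.29. None of the 5 was called, and 0.524 for Tap1 was the lowest Benjamini-Hochberg adjusted p that limma gave among them. Of the coding genes next to Tapbp, Zbtb22 was at 0.10 ± 0.07 and Rgl2 at 0.09 ± 0.11, against -0.20 ± 0.06 for Tapbp itself. Farther out, Daxx was at -0.13 ± 0.07 and Wdr46 at -0.15 ± 0.09, with the sign of Tapbp, and Pfdn6 at 0.03 ± 0.09. None of these neighbours was called.

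Promoters of the members are shown because interferon and NF-kappa B act on class I genes through sites there. The RefSeq table, of GRCm38.p6, held 6 of the 10 genes, H2-Q4, H2-M3, H2-Q2, Tap1, Tapbp and B2m, with 300 bases each, 250 before and 50 after the annotated start. The other 4 were H2-T24, H2-Q5, H2-T10 and Tap2. On each, 4 motifs were searched on both strands, and no site overlapped another: the interferon-stimulated response element as GAAANNGAA, the same element with the half-sites in the other order as GAANNGAAA, the STAT site GAS as TTCNNNGAA, and the kappa B site as GGGNNTTCC. The second of these was added after the promoters had been read. Capitals mark the matches in the 4 promoters printed, those of the 3 genes with a match and of H2-Q2, which stands next to H2-Q4. H2-Q4 is at chr17:35379367-35379666, H2-M3 at chr17:37269984-37270283, H2-Q2 at chr17:35342057-35342356 and B2m at chr2:122147437-122147736, all on the plus strand.
H2-Q4: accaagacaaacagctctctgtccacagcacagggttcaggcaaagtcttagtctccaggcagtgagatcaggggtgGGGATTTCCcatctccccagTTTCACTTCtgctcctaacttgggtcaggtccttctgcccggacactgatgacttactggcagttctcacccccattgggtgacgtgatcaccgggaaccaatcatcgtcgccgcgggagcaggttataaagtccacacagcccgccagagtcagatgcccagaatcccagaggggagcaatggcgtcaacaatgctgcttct
H2-M3: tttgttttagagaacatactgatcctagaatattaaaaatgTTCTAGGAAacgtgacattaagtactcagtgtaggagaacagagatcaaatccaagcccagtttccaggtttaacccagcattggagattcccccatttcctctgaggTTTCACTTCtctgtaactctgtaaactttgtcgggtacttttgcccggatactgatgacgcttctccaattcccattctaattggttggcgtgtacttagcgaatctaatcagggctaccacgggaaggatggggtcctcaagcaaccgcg
H2-Q2: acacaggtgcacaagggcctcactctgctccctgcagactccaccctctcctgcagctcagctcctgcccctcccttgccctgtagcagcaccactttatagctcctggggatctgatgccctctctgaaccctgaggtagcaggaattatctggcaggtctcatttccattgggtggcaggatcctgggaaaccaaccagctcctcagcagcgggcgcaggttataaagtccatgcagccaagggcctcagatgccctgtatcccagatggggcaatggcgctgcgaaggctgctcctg
B2m: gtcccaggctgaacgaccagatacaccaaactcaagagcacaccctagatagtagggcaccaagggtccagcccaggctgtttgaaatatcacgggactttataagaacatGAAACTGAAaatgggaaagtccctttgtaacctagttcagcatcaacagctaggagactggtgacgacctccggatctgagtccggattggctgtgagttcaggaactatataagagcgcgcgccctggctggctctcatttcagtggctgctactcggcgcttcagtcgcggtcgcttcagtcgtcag

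B2m held GAAANNGAA, 139 bases before the start, and 8.56% of 32851 RefSeq promoters of this length held it. H2-Q4 and H2-M3 held GAANNGAAA, 153 and 101 bases before the start, as did 7.52% of all promoters. Because this motif was added after the promoters had been read, its matches are no independent sign beside that share. H2-Q4 also held the kappa B letters 173 bases before the start, against 5.82% of all promoters, and H2-M3 the GAS letters 209 bases before it, against 8.3%. H2-Q2, Tap1 and Tapbp held none of the 4 in this window. The promoters of H2-Q4 and H2-Q2 were identical at 61.9% of 318 aligned positions, and the genes' log2 changes were -0.36 ± 0.16 and -0.10 ± 0.08 (SE, n = 3 per group). A match is a description of letters in the reference strain and not evidence of a bound factor.

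The order of arrays was shared by part of the 10 genes. After the mean of each group was removed, the values of H2-Q4 and B2m over the 6 arrays had a Pearson r of 0.99, H2-Q5 and B2m 0.99, and H2-M3 and Tap1 0.98. H2-T24 went another way, with r of -0.35 against H2-Q4 and -0.86 against H2-Q2. Tapbp too was below 0 against several, with r of -0.26 against H2-Q4 and -0.27 against B2m. Over all 45 pairs r ran from -0.86 to 0.99 with a median of 0.55, and 32 pairs were above 0. These are descriptions over 6 arrays whose group means were taken out, and genes on one array share its RNA and its normalization.

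Genes outside the 10 were compared with the mean of the 10 centred profiles. Over the 6 arrays the highest Pearson r were those of Trim21, at 0.990, Zfp518a, at 0.988, Bhlha15, at 0.984, Slc29a3, at 0.980, and Mtmr14, at 0.976, out of 12019 genes searched. Trim21 encodes an antibody receptor inside the cell, and Bhlha15 a transcription factor of secretory cells such as plasma cells. With the group means removed, the highest were Nagk at 0.998, Rtel1 at 0.993, Rpl32l at 0.992, Rpl28 at 0.991 and Poldip3 at 0.988. These are the extremes of a search over many genes and 6 arrays, and the 2 sets of names have no gene in common.

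The array order of the class I genes was set beside markers of marrow cell types. The mean of the 10 genes was 10.31, 10.29 and 10.12 on the diabetic arrays and 10.44, 10.59 and 10.38 on the wild type arrays. B cell precursor markers, 7 of 8 tested, averaged 10.66, 10.78 and 10.38 on the diabetic arrays and 11.41, 11.12 and 10.31 on the wild type arrays. Replicate 3 of each group was the lowest of its group in both lists, and all 7 B cell markers had a log2 change below 0, with none called by limma and 1 at an unadjusted p under 0.05. Interferon effectors, 13 of 15 tested, averaged 8.78, 8.72 and 8.63 on the diabetic arrays and 9.65, 10.11 and 9.94 on the wild type arrays. Their highest value, as for the class I genes, was on wild type replicate 2. That array was also the highest for T and NK cell markers, at 9.463, and dendritic cell markers, at 9.218. The same held for the lists of peptide supply and of class I regulators. B cell precursor markers were highest on wild type replicate 1, and plasma cell and monocyte markers on wild type replicate 3. T and NK cell markers, 6 of 8 tested, averaged 9.05, 8.99 and 9.46 in diabetic and 9.12, 9.46 and 9.16 in wild type marrow, where the groups overlapped. Plasma cell markers, 5 of 5 tested, averaged 9.560, 9.479 and 9.643 in diabetic and 9.633, 10.149 and 10.201 in wild type marrow, and all 5 had a log2 change below 0, with none called by limma and 3 at an unadjusted p under 0.05. Monocyte and macrophage markers, 7 of 8 tested, averaged between 10.254 and 10.356 on the diabetic arrays and between 10.363 and 10.603 on the wild type arrays, which did not overlap. Of these 7, none was called by limma, and 4 were lower at an unadjusted p under 0.05, Cd68, C1qa, C1qb and C1qc. The same 4 had groups apart, with diabetic values lower. Adgre1, Ccr2 and Csf1r overlapped, with log2 changes of 0.27, 0.05 and -0.0087. Erythroid markers, 4 of 7 tested, averaged between 12.21 and 12.54 on the diabetic arrays and between 12.15 and 12.67 on the wild type arrays. Dendritic cell markers, 5 of 6 tested, averaged between 8.90 and 9.09 on the diabetic arrays and between 9.16 and 9.22 on the wild type arrays, and of the 5 none was called by limma, while 3 were lower and 1 higher at an unadjusted p under 0.05. Over all genes tested, 47.7% had a log2 change below 0 and 3.2% were lower at an unadjusted p under 0.05, or 7.18% for either direction. Groups were apart with diabetic values lower for 5.39%. The part of any cell type in the class I values was not tested.

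**Figure D3:**
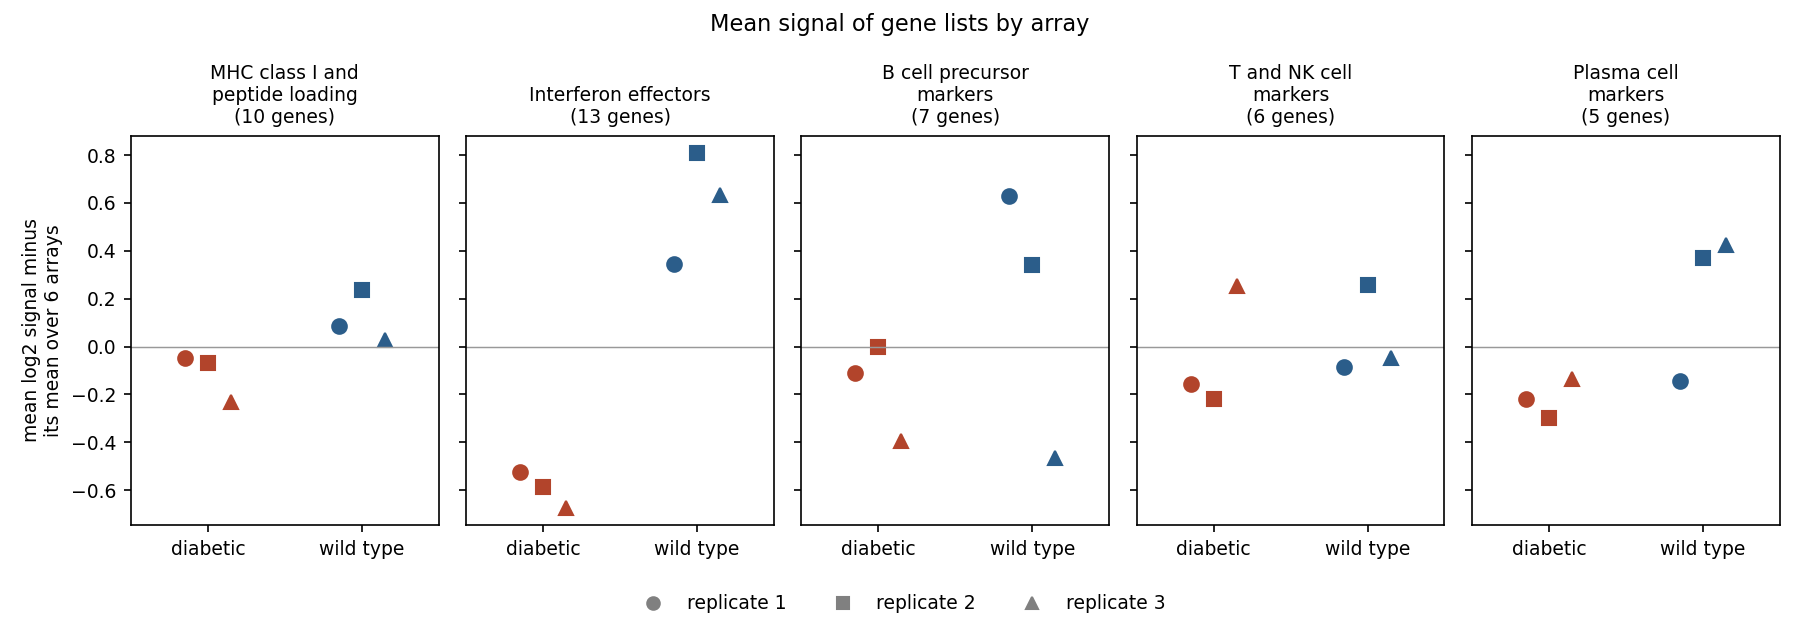
Mean log2 signal of 5 gene lists on each array, minus the mean over the 6 arrays, with marker shapes for the replicate. The class I genes and the interferon effectors are lower on all 3 diabetic arrays, and in the B cell precursor panel wild type replicate 3 lies lowest of all.

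The other genes of the class I pathway were taken from lists of 92 genes chosen with earlier results of these data known. Of these, 68 had a probe set with 1 symbol and 45 passed the level filter, and 2 of the 45 were called, both lower in diabetic marrow, where 0.333% of all genes were called lower. The median log2 change of the 45 was -0.03. Irf9 and Stat2, transcription factors of the type I interferon response, were the 2 called. Irf9 was at 9.66, 9.77 and 9.78 on the diabetic arrays and at 10.35, 10.68 and 10.52 on the wild type arrays. Its log2 signal fell by 0.78 ± 0.09 in diabetic marrow (SE, n = 3 per group), and limma gave it 0.0184 as Benjamini-Hochberg adjusted p. Stat2 was at 9.41, 9.41 and 9.52 on the diabetic arrays and at 9.89, 10.06 and 9.87 on the wild type arrays, and its log2 signal fell by 0.49 ± 0.07, at 0.0389 as limma's adjusted p. Omitting wild type replicate 3 gave 2 called pathway genes, omitting wild type replicate 1 gave 1, and omitting any other array gave 0. Centring the arrays on their medians left 1 called, and a fit over all probe sets left 0.

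Of 18 regulators tested, the other 16 were not called. Nlrc5, the transactivator of class I promoters, was at 10.88, 10.71 and 10.69 on the diabetic arrays and at 11.18, 11.11 and 10.80 on the wild type arrays, and wild type replicate 3 lay below diabetic replicate 1. Its log2 change was -0.27 ± 0.11 (SE, n = 3 per group), and limma gave it 0.645 as Benjamini-Hochberg adjusted p. Irf1, a factor induced by interferon gamma, was at -0.27 ± 0.11, with 0.678 as limma's adjusted p. The interferon receptor genes Ifnar1, Ifnar2 and Ifngr2 were within 0.05 of 0, and Ifngr1 was at 0.21 ± 0.07, with 0.579 as limma's adjusted p. Nlrc5, Irf1 and the 4 receptor genes were named after their values were seen.

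Peptide supply and folding genes had 16 tested members, 14 with a log2 change below 0, and 0 were called by limma, with 4 lower and 1 higher at an unadjusted p under 0.05. The diabetic values all lay below the wild type values for 6 of the 16 and above them for 1. Over all genes tested, 47.7% had a log2 change below 0 and 3.2% were lower at that unadjusted p. Groups were apart downward for 5.39% and upward for 6.97%. Psme2, a subunit of the interferon-inducible proteasome activator, was at 10.55, 10.48 and 10.56 on the diabetic arrays and at 10.84, 10.80 and 10.73 on the wild type arrays. The groups did not overlap. The log2 change was -0.26 ± 0.06 (SE, n = 3 per group), and limma gave it 0.264 as Benjamini-Hochberg adjusted p. Npepps, a cytosolic aminopeptidase, went the other way, at 11.24, 11.14 and 11.31 on the diabetic arrays and at 10.98, 10.96 and 10.94 on the wild type arrays, with a log2 change of 0.27 ± 0.06 and the same limma adjusted p of 0.264. Calr, the chaperone calreticulin of the loading complex, was at -0.20 ± 0.06, while Canx and Pdia3, which also serve class I folding, were at -0.04 ± 0.05 and -0.06 ± 0.07. Erap1, which trims peptides in the endoplasmic reticulum, was at -0.05 ± 0.06. Psmb10 was at -0.22 ± 0.09, and its diabetic values all lay below the wild type values. Its diabetic replicate 3, at 9.789, and wild type replicate 1, at 9.791, were nearly level. Canx, Pdia3, Erap1 and Psmb10 were named after their values were seen.

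Among the remaining heavy chains, 14 of 27 had a probe set with 1 symbol and only H2-Bl passed the level filter, at -0.03 ± 0.08 (SE, n = 3 per group). Class I-like proteins outside the H2 region had 4 tested members, with Cd1d1, which presents lipids to NKT cells, at -0.09 ± 0.08, Hfe, a regulator of iron uptake, at -0.09 ± 0.09, and Cd1d2 at -0.09 ± 0.12. The list chosen as receptors that read class I had 6 tested members, all with a log2 change above 0, while 47.7% of all genes tested were below 0. None of the 6 was called by limma and 0 were at an unadjusted p under 0.05. The shared sign did not hold below the level filter. There Klrk1 averaged 6.97 in diabetic and 7.21 in wild type marrow, and Klrc1 7.29 and 7.48. Klra3 averaged 7.55 and 7.39, and Klra8 5.51 and 5.52. Whether each gene of this list binds class I was not tested, and Pilra is not an established class I receptor. Cd8b1 was at 0.38 ± 0.24, Cd8a at 0.16 ± 0.17 and Pilra at 0.13 ± 0.08, and diabetic replicate 3 alone held the high values of Cd8a and Cd8b1, at 8.76 and 9.42.

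A further 2 lists served for contrast. MHC class II genes, which serve the presentation of peptides to CD4 T cells, had 8 tested members, a median log2 change of -0.02 and none called by limma, with 0 at an unadjusted p under 0.05. H2-DMa was at -0.20 ± 0.09 (SE, n = 3 per group), H2-Ab1 at -0.13 ± 0.14 and Cd74, the invariant chain, at -0.09 ± 0.13. Interferon effectors had 13 tested members, all below 0, with a median of -1.35, and 9 were called lower. Over all genes tested, 47.7% were below 0 and 0.333% were called lower. The 9 were Ifit3, Rtp4, Ifi27l2a, Oas2, Usp18, Oasl2, Irf7, Xaf1 and Mx1, with log2 changes from -1.78 for Ifit3 to -0.92 for Mx1. Mx1 passed the level filter through its wild type mean of 7.97, its diabetic mean of 7.05 being under that level, so its difference is no independent sign. The calls were not stable as a count, since the 40 genes called lower over the whole table became 1 probe set in the fit over all probe sets and 2 genes without diabetic replicate 2. The median of the 10 class I genes, -0.23, lay between these lists, and no test of the difference between lists was made.

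**Figure D4:**
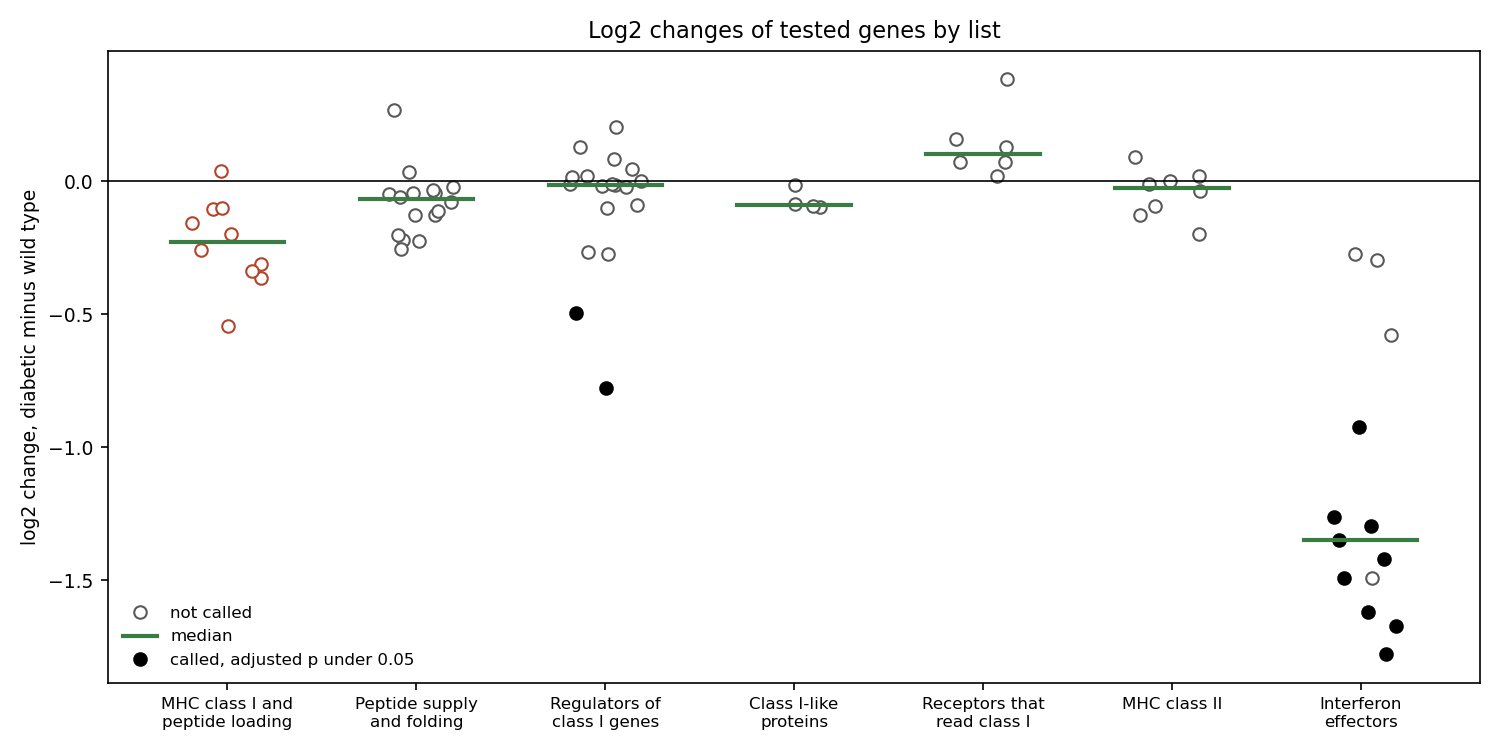
Log2 change, diabetic minus wild type, of each tested gene in 7 lists, with open points for genes not called, filled points for genes called at an adjusted p under 0.05 in limma, and a green line for the list median. The 10 class I genes, at a median of -0.23, include no filled point, while 9 of 13 interferon effectors and 2 of 18 regulators are filled. Of all genes tested, 0.333% were called lower. The fit over all probe sets called 1 probe set lower in all.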

How the data were processed

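RNA of 6 bone marrow samples was measured on Affymetrix gene arrays, 3 diabetic and 3 wild type by the sample titles (DB and WT) and source labels. Per the submitters' processing notes, RMA was run by the authors in Affymetrix Expression Console, and the deposited values are log2 signals per probe set. RMA brings the arrays' distributions close to each other, so a shift shared by most genes would be largely removed. No software version or genome build is given in the sources used here.

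The table held 35556 probe sets, of which 21789 had 1 symbol, 1621 several and 12146 none in the platform annotation. Probe sets with 1 symbol stood for 19938 genes, each by its set with the highest mean. A gene was tested where this mean reached 7.50, which is the 40th percentile over named sets, and 12029 genes did. The 3 diabetic arrays were set against the 3 wild type arrays in limma 3.58.1 (lmFit, eBayes, R 4.3.3) without covariates, and a gene was called at a Benjamini-Hochberg adjusted p under 0.05 over all genes tested. Errors of log2 changes are standard errors of that fit and the direction is diabetic minus wild type. The fit was tested on simulated data. All 10 members matched RefSeq of GRCm38.p6 by gene ID with the same symbol, and promoters came from its table. Promoters were aligned with Biopython 1.88 and figures drawn with matplotlib 3.10.9.

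The members, lists and alternatives were chosen with earlier results of these data known. The text names all members, of each pathway or contrast list the genes past the threshold or, where none passed, the 3 with the smallest p, and the 5 genes most like the members by each of 2 measures. Neighbours on the chromosome and other genes were named after their values were seen. Alternatives were no level filter and a stricter one, quantile normalization on top of RMA, centring on array medians, averaged probe sets per gene, a trended and robust eBayes, array weights, the replicate number as a block, a fit over all probe sets, a threshold of 0.1, and each array left out in turn.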

Additional observations from a re-analysis of the deposited data

How the results depend on the processing

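The count of 0 called members held under the other level filters, both further normalizations, averaged probe sets, a trended and robust eBayes, the replicate block, all probe sets, the threshold of 0.1 and with each array left out, where the stricter level filter left 9 of the 10 (without H2-T10), but with array weights 7 of the 10 were called lower. Array weights also moved the median log2 change of the members to -0.36, the called pathway genes to 13 and all called genes to 1878. They gave wild type replicate 2 a weight of 11.7 and the other 5 arrays 0.251 to 2.59, and the estimate stopped before it converged. The 2 called pathway genes became 1 with median centring, 0 with the replicate block and 0 with all probe sets, and 0 to 2 with 1 array left out. All called genes, 52 of which 40 were lower, became 2 with the replicate block, 1 with all probe sets and 3 to 70 with 1 array left out. The members' median ran from -0.28 to -0.15 with 1 array left out. The only sign to turn was that of Tap2, which ran from -0.0010 without diabetic replicate 1 to 0.062 without diabetic replicate 2. The deviations of same-numbered arrays from their group means correlated at 0.327, -0.043 and -0.055, so the numbers were not taken as pairs, and not every array correlated best with its own number. The cause of these moves was not tested.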
